A study of Homo sapiens with 4 samples.

Results

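The genes described here are 10 genes of the NF-kappaB pathway, listed by symbol for their known functions at a time when earlier results of these data were known. NFKBIA, TNFAIP3 and BIRC3 are targets that feed back on the pathway, called the feedback arm here. NFKB1, NFKB2, RELA and RELB encode subunits of the transcription factor, and CXCL8, CXCL1 and CXCL2 encode chemokines. Each symbol was found on 1 row among 57979 rows with values. Of the 10 genes, 8 had an average above 1 FPKM over the 4 libraries and were tested, together with 13246 rows in all, while CXCL8 and CXCL1 stayed below this level and were only described. FPKM gives the fragments of a gene relative to its transcript length and to all mapped fragments of a library. Levels of different genes in a library can thus be set side by side. Differences between the groups, however, moved with transcript length and GC content, as given further on.

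Polyadenylated RNA was sequenced from wild-type (WT) cells and from TXNDC9 knockout (KO) cells of the line HepG2, which was derived from a human liver tumor, with 2 libraries in each group. The knockout was made with lentiviral CRISPR-Cas9 and guides against TXNDC9, a thioredoxin domain protein that binds the chaperonin TCP1 complex. Both groups were grown in DMEM with serum, the labels name no stimulus, and the labels do not say whether the knockout cells were 1 clone or a pool, nor whether the libraries of a group came from separate cultures. For its Western blot the study sorted HepG2 cells by flow cytometry for infection with Cas9 and a TXNDC9 guide, or with the vector alone, and it is not stated whether the sequenced cells were sorted in this way. Adjusted p-values therefore measure only the spread between these libraries, which may be technical.

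The label of the cell line was not borne out by its markers. All 10 genes of a hepatocyte list, among them ALB, AFP, APOA1, APOB and HNF4A, were below 1 FPKM in every library, with a highest value of 0.449 FPKM for AFP and a summed level of 0.446 and 0.733 FPKM in WT and 0.0479 and 0.174 FPKM in KO. APOA1 and APOH were listed at 0 in all libraries. In the same libraries 14 genes used by nearly every cell, such as ACTB and GAPDH, lay between 317.5 and 12001 FPKM. HepG2 is known for its high output of hepatocyte proteins, so each result below is a result of libraries labelled HepG2, and none can be given without them. Of the other lists, 2 of 8 leukocyte markers (CD68 and MPO), 1 of 6 endothelial markers (CDH5) and 5 of 8 mesenchymal markers reached the level for testing, led by COL1A1 with 31.5 and 22.8 FPKM in WT and 20.7 and 17.5 FPKM in KO. TXNDC9 mRNA was 35.1 and 37.3 FPKM in WT and 21.9 and 27.6 FPKM in KO, a log2 fold change of −0.55 (standard error 0.14) with a limma adjusted p of 0.0145 (Benjamini-Hochberg, BH, as for every adjusted p given here), which did not pass 0.01. Rescaling the libraries to the same sum turned this value to 0.12. These are mRNA levels. EIF5B and ENSG00000241962, both on the other strand, overlap TXNDC9. The use of strand in the counting is not given, so reads of the shared parts cannot be assigned. For protein, the study reported from a Western blot that TXNDC9 was significantly reduced in its HepG2 knockout cells.

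NF-kappaB is a dimer of Rel-family proteins that is held in the cytoplasm by inhibitors such as IkappaB-alpha, the product of NFKBIA. A signal from a TNF or IL-1 receptor activates the IkappaB kinase complex, IkappaB-alpha is degraded, and the dimer enters the nucleus and binds kappaB sites in its target genes. Several targets feed back on the pathway: NFKBIA is made anew, TNFAIP3 (A20) edits ubiquitin chains on signaling proteins, and BIRC3 (cIAP2) is a ubiquitin ligase of the TNF receptor complexes. Others, such as CXCL8, CXCL1 and CXCL2, encode secreted chemokines that attract neutrophils through CXCR1 and CXCR2.

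Promoters of these genes are shown where they carry the letters that NF-kappaB reads. RefSeq promoter windows (GRCh38.p14) of 250 bases before and 50 bases after the start site were found for 9 of the 10 genes, all but RELB, and were searched on both strands for the NF-kappaB consensus, which has 10 positions. At least 1 match was present for 7 of the 9 genes, while 11.3% of all 35116 windows held one. The first count is per gene over any of its windows, and the share is per window. NFKB1 and RELA had 2 windows each and NFKB2 had 3, so the 2 are not on the same footing. No match was found for RELA and CXCL8, which says only that the exact letters are not in these windows. The following windows run 5′ to 3′ on the strand of the gene, with the match in capitals.
NFKBIA (chr14:35404811-35404840, minus strand): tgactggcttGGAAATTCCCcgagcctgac
TNFAIP3, first match (chr6:137867182-137867211, plus strand): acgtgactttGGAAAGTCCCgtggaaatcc
TNFAIP3, second match (chr6:137867194-137867223, plus strand): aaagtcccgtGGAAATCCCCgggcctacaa
BIRC3, first match (chr11:102317275-102317304, plus strand): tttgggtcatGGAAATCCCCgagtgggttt
BIRC3, second match (chr11:102317339-102317368, plus strand): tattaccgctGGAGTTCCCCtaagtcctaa
NFKB1 (chr4:102501300-102501329, plus strand): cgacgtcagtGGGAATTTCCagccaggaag
CXCL1 (chr4:73869304-73869333, plus strand): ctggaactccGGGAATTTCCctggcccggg
CXCL2 (chr4:74099254-74099283, minus strand): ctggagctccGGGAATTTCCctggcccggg

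Distances here count from the RefSeq start site, which can differ from the GENCODE gene positions given further on, as for TNFAIP3 and NFKB1. The matches of TNFAIP3 began 67 and 55 bases before the start site and those of BIRC3 199 and 135 bases before it. The match of NFKBIA began 81 bases before its start and that of NFKB1 49 bases before it. In CXCL1 and CXCL2 the match began 79 and 78 bases before the start, and the same letters also matched on the other strand, shifted by 1 base. NFKB2 had matches at 5 positions in 2 of its 3 windows, of which 2 positions overlapped. The letters TATAAA, read on both strands, were found for NFKBIA and CXCL8 only, and in 11.5% of all windows. Matches were thus present in genes that rose and in genes that did not, and a match is a description of the sequence, not a measured binding site.

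Of the 8 genes tested, 2 were called higher in KO and 0 lower. A call required a 2-fold or larger change and a limma p below 0.01 after BH adjustment over all rows. Of all rows tested, 14.2% were called higher and 15.3% lower. The 2 genes were TNFAIP3 and BIRC3, both of the feedback arm. An unadjusted p under 0.05 was reached by 6 of the 8, which is near the 71.3% of all rows. At an adjusted p under 0.01 with any fold 3 of the 8 passed (RELA was the third), against 50.8% of all rows. The median log2 fold change of the 8 genes was 0.10, beside −0.09 over all rows, and it was 0.043 without WT replicate 1 and 0.15 without WT replicate 2. KO and WT values did not overlap in 7 of the 8 genes, beside 86.1% of all rows tested. The KO values were above in 4 of the 8 (40.1% of all rows) and below in 3 (45.9%).

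**Figure D1:**
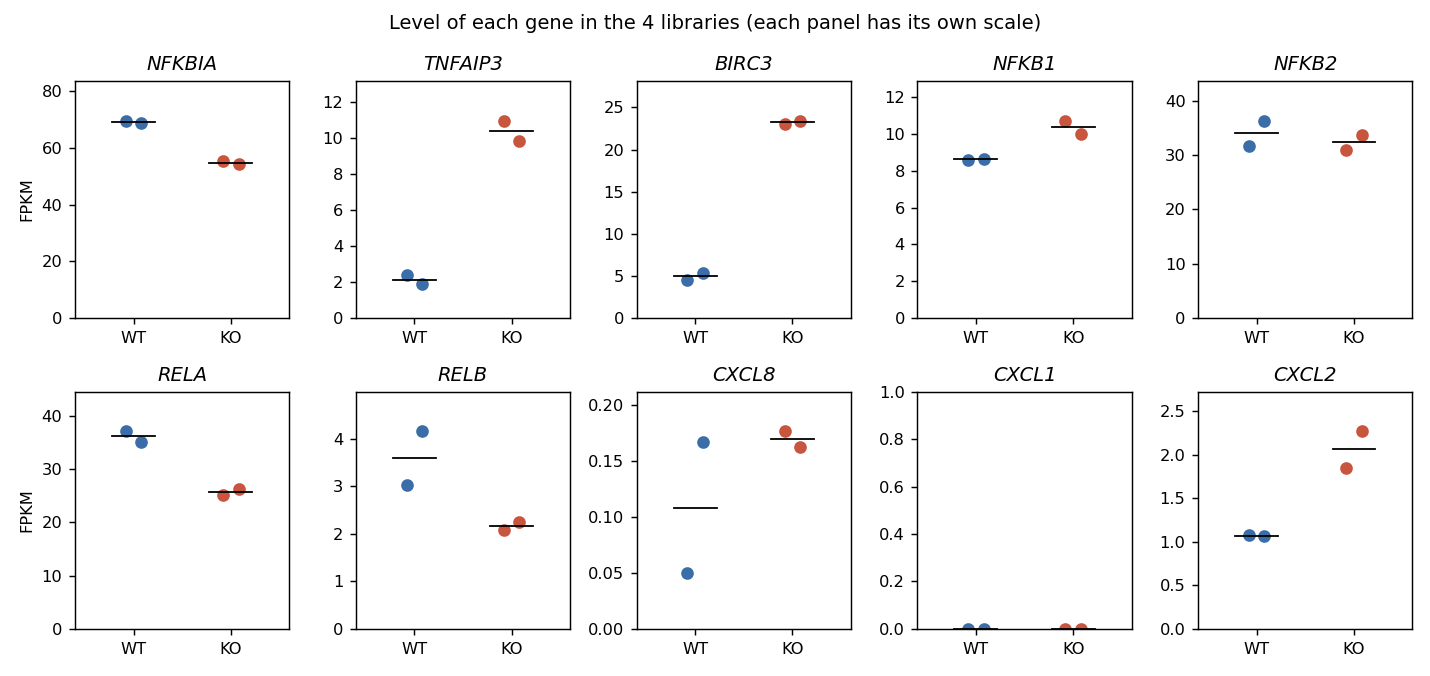
FPKM (vertical axes, each panel with its own scale from 0) of the 10 genes in 2 wild-type (WT, blue) and 2 TXNDC9 knockout (KO, red) libraries, where points are libraries and lines are group means. TNFAIP3 and BIRC3 lie far apart between the groups (2.13 against 10.4 and 4.96 against 23.2 FPKM on average), NFKB2 overlaps, and CXCL1 is listed at 0 throughout.

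TNFAIP3 (ENSG00000118503), which encodes the ubiquitin-editing protein A20, occupies positions 137867214 to 137883314 of chromosome 6 (hg38, plus strand). It was 2.38 and 1.88 FPKM in the WT libraries and 10.97 and 9.82 FPKM in the KO libraries. Both KO values stood above both WT values, with means of 2.13 ± 0.356 and 10.4 ± 0.816 FPKM (SD, n = 2). TNFAIP3 rose 4.89-fold, with a log2 fold change of 2.24 (standard error 0.16) and a limma adjusted p of 5.20e-04. An antisense lncRNA, WAKMAR2, overlaps the gene, and the use of strand in the counting is not given in the sources used here, so reads of the shared part cannot be assigned.

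BIRC3 (ENSG00000023445), the ubiquitin ligase cIAP2, lies on chromosome 11 from 102317484 to 102339403 on the plus strand. A gene on the other strand, ENSG00000288528, overlaps it, and as for TNFAIP3 reads of the shared part cannot be assigned. BIRC3 was 4.51 and 5.40 FPKM in WT and 23.0 and 23.4 FPKM in KO. The lowest KO value was more than 4 times the highest WT value, and the means were 4.96 ± 0.630 and 23.2 ± 0.279 FPKM (SD, n = 2). BIRC3 rose 4.69-fold, with a log2 fold change of 2.21 (standard error 0.12) and a limma adjusted p of 4.87e-04. Its neighbor and paralog BIRC2 (cIAP1) was 15.7 and 18.6 FPKM in WT and 21.3 and 19.4 FPKM in KO, with a limma adjusted p of 0.126. The canonical transcripts of both genes shared 0.161% of their stretches of 50 bases, so few reads could be exchanged between them. Within each library, the log2 ratio of BIRC3 to BIRC2 was −1.78 and −1.76 in WT and 0.11 and 0.27 in KO, and scaling whole libraries hardly moves this ratio, while after the length and GC correction BIRC3 was at 1.38 and BIRC2 at −0.23 (log2 fold changes). On deposited FPKM, without that correction, BIRC3 mRNA was thus below BIRC2 mRNA in WT and slightly above it in KO.

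Both calls rested on having 2 KO libraries. Without KO replicate 1 or KO replicate 2, limma called 0 of 13246 rows, although 7129 and 7307 rows had an unadjusted p under 0.05. The limma adjusted p of both genes was then 0.0237 and 0.0232, with log2 fold changes of 2.17 and 2.32 for TNFAIP3 and 2.22 and 2.20 for BIRC3. In these fits the lone KO library is assumed to vary like the WT libraries. Without either WT library both genes were called.

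NFKBIA (ENSG00000100906, chromosome 14 from 35401079 to 35404749, minus strand), which encodes the inhibitor IkappaB-alpha, did not follow the other feedback genes. It was 69.7 and 68.9 FPKM in WT and 55.3 and 54.2 FPKM in KO, and both KO values stood below both WT values. The log2 fold change was −0.34 (standard error 0.10), with a limma adjusted p of 0.0235, which did not pass, and the sign turned to 0.34 after rescaling and to 0.16 after adjusting for length and GC content as described further on. Within each library, the log2 ratio of TNFAIP3 to NFKBIA was −4.82 and −5.13 in WT and −2.32 and −2.45 in KO. This difference of 2.58 between the groups is hardly moved by library scaling and is beyond the SDs of 0.22 and 0.093 (n = 2). The ratio is not corrected for length and GC content. With that correction the log2 fold changes were 1.99 for TNFAIP3 and 0.16 for NFKBIA. This pair was set side by side after their values were seen.

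The subunit genes had no call. RELA (ENSG00000173039), the main transactivating subunit p65, lies on chromosome 11 from 65653599 to 65663090 on the minus strand, and was 37.1 and 35.2 FPKM in WT and 25.2 and 26.3 FPKM in KO. The groups did not overlap, with a log2 fold change of −0.49 (standard error 0.10) and a limma adjusted p of 0.00651. That p passed 0.01, but the fold was short of 2, and rescaling turned the value to 0.19 while the correction left −0.08. RELA-DT, on the other strand, overlaps the gene.

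RELB (ENSG00000104856, chromosome 19 from 45001461 to 45038192), a subunit of the noncanonical pathway, was 3.02 and 4.16 FPKM in WT and 2.09 and 2.26 FPKM in KO. The WT libraries differed from each other by more than the lower of them did from the KO libraries. Its log2 fold change was −0.68 (standard error 0.21), with a limma adjusted p of 0.0299, and the value was 0.03 after the correction. NFKB1 (ENSG00000109320, chromosome 4 from 102501330 to 102617302), which encodes the p105 precursor of p50, was 8.58 and 8.65 FPKM in WT and 10.7 and 9.99 FPKM in KO. Its KO values were above its WT values, with a log2 fold change of 0.26 (standard error 0.11) and a limma adjusted p of 0.0707. NFKB2 (ENSG00000077150, chromosome 10 from 102394110 to 102402524), the p100 precursor of p52, was 31.6 and 36.3 FPKM in WT and 31.0 and 33.7 FPKM in KO. Here the groups overlapped, with a log2 fold change of −0.07 (standard error 0.12) and a limma adjusted p of 0.618.

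**Figure D2:**
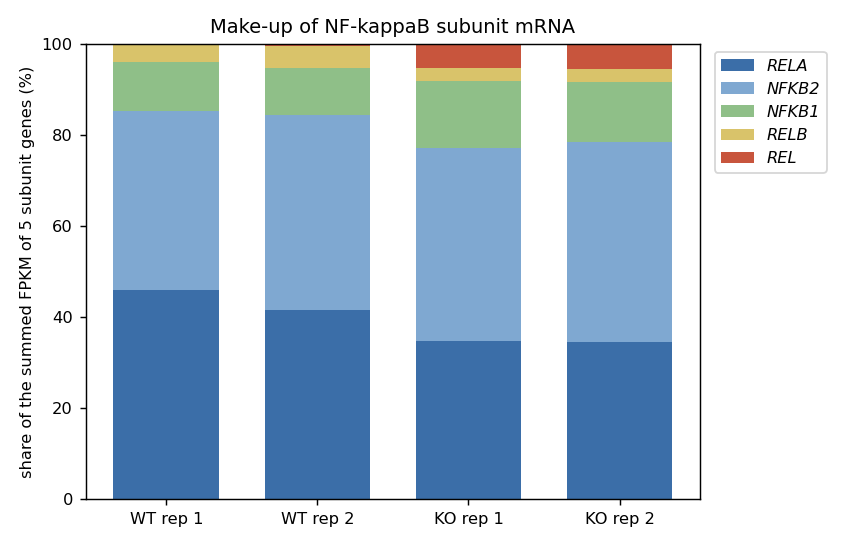
Share (%) of the summed FPKM of the 5 NF-kappaB subunit genes held by each, in the 2 WT and the 2 KO libraries, stacked to 100. RELA takes 46.0 and 41.6% in WT and 34.6 and 34.4% in KO, and REL 0.323 and 0.375% in WT and 5.24 and 5.48% in KO.

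Shares within the subunit family do not depend on library scaling. Of the summed FPKM of the 5 subunit genes, with REL added to the 4 above, RELA held 46.0 and 41.6% in WT and 34.6 and 34.4% in KO. NFKB2 held 39.3 and 42.9% in WT and 42.5 and 44.1% in KO, and NFKB1 10.6 and 10.2% against 14.7 and 13.1%. The share of RELB was 3.75 and 4.91% in WT and 2.87 and 2.95% in KO. REL, the c-Rel subunit known from lymphoid cells, held 0.323 and 0.375% in WT and 5.24 and 5.48% in KO. RELA and NFKB2 together thus held most of the subunit mRNA in every library, and the RELA, NFKB1, RELB and REL shares did not overlap between the groups. For comparison, the FPKM values of 86.1% of all rows tested did not overlap either. The shares are not corrected for transcript length and GC content, and with that correction the log2 fold changes of RELA (−0.08), RELB (0.03) and NFKB1 (0.09) were small, and that of NFKB2 (0.34) stood above that of NFKB1. The log2 ratio of NFKB2 to NFKB1 was 1.87 and 2.06 in WT and 1.52 and 1.74 in KO, and that of RELB to RELA −3.58 and −3.05 against −3.53 and −3.48, which overlapped. NFKBIA stood above RELA by a log2 ratio of 0.91 and 0.97 in WT and 1.13 and 1.04 in KO.

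The chemokine genes were low or listed at 0. CXCL1 (ENSG00000163739, chromosome 4 from 73869393 to 73871308) was listed at 0 in all 4 libraries. CXCL8 (ENSG00000169429, chromosome 4 from 73740519 to 73743716), which encodes interleukin-8, was 0.0499 and 0.167 FPKM in WT and 0.177 and 0.163 FPKM in KO, values that overlapped and were too low for a fold. CXCL2 (ENSG00000081041, chromosome 4 from 74097040 to 74099196) was 1.08 and 1.07 FPKM in WT and 1.85 and 2.27 FPKM in KO. Both KO values of CXCL2 were above both WT values, and the ratio of the means was 1.92. Its log2 fold change was 0.88 (standard error 0.25) with a limma adjusted p of 0.0221, so it was not called. CXCL2 was called after rescaling (1.54, limma adjusted p = 0.00316) and after the correction (1.25, limma adjusted p = 0.00489). Rescaling also raised the median of all rows tested to 0.59, and relative to that median CXCL2 was at 0.95, short of 2-fold. The canonical transcript of CXCL2 shared 5.63% of its stretches of 50 bases with CXCL1 and 5.07% with CXCL3, and reads from these shared stretches cannot be assigned to 1 gene. CXCL3 itself was 0.2999 and 0.390 FPKM in WT and 0.319 and 0.290 FPKM in KO.

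Ordered by level, NFKBIA came first in both groups, with means of 69.3 ± 0.598 FPKM in WT and 54.8 ± 0.731 FPKM in KO (SD, n = 2). In WT it was followed by RELA and NFKB2, whose values overlapped, and then by NFKB1, BIRC3, RELB, TNFAIP3, CXCL2, CXCL8 and CXCL1 without overlap between neighbors. In KO the order after NFKBIA was NFKB2, RELA, BIRC3, TNFAIP3, NFKB1, RELB, CXCL2, CXCL8 and CXCL1. TNFAIP3 overlapped with NFKB1 and RELB with CXCL2 in this order. On deposited FPKM BIRC3 thus moved from below NFKB1 to above it, and TNFAIP3 from below RELB to the level of NFKB1. This order is not corrected for transcript length and GC content. With that correction the log2 fold changes were 1.38 for BIRC3, 1.99 for TNFAIP3, 0.09 for NFKB1 and 0.03 for RELB. The summed level of all 10 genes was 158.1 and 161.7 FPKM in WT and 160.3 and 162.2 FPKM in KO, while the FPKM of all rows summed to 805816 and 971102 in WT and to 535973 and 568280 in KO.

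These totals make the direction of small differences depend on the scale. Bringing all libraries to a common sum (TPM) shifted the median log2 fold change of all rows tested from −0.09 to 0.59. Relative to the median of all rows, the log2 fold changes were 2.33 for TNFAIP3, 2.30 for BIRC3, 0.96 for CXCL2, 0.35 for NFKB1, 0.02 for NFKB2, −0.25 for NFKBIA, −0.40 for RELA and −0.59 for RELB. Rescaling multiplies each library by 1 constant, so by construction it hardly moves these relative values.

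**Figure D3:**
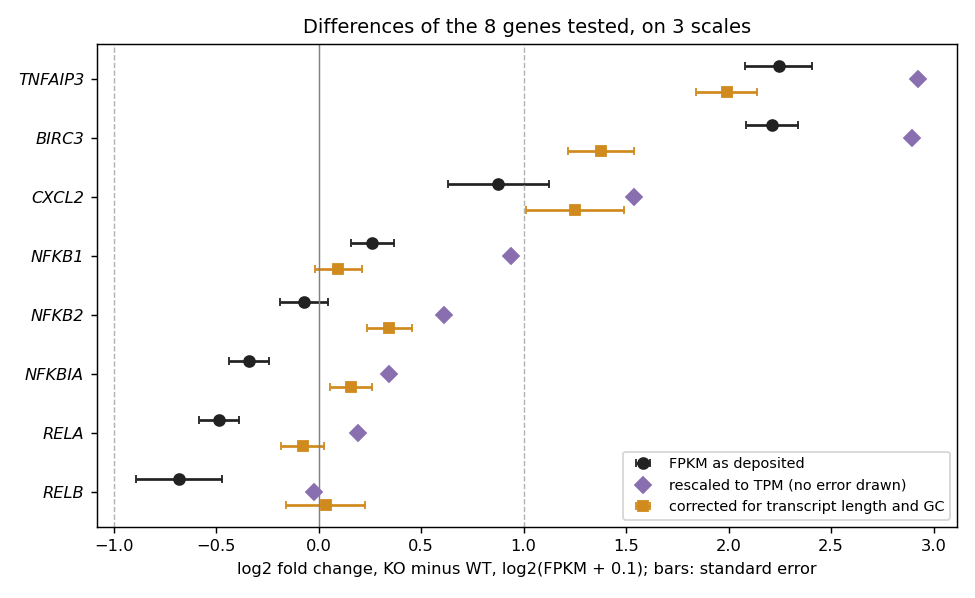
Log2 fold change (horizontal axis, KO minus WT) of the 8 genes tested, on deposited FPKM (black circles), after rescaling to TPM (purple diamonds) and after a correction for transcript length and GC content (orange squares). Bars are standard errors and dashed lines mark a 2-fold change, which TNFAIP3 (2.24, 2.93 and 1.99) and BIRC3 (2.21, 2.89 and 1.38) exceed on each scale.

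The difference between the groups also moved with transcript length. Over 11215 genes tested whose canonical transcript was known, Spearman's rho of the log2 fold change was 0.563 with length and −0.510 with GC content, a description across genes that share the same 4 libraries. BIRC3, with 6877 nt and 35.8% GC, and TNFAIP3, with 4665 nt and 49.3% GC, have the longest canonical transcripts of the 10 genes. Among the 3271 genes tested with a transcript at least as long as that of TNFAIP3, 33.9% were called higher, against 6.53% of the 7944 with a shorter one. Each library was therefore also corrected for length and GC content with a loess curve.

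With this correction the log2 fold change of TNFAIP3 was 1.99 (standard error 0.15, limma adjusted p = 3.72e-04) and that of BIRC3 1.38 (standard error 0.16, limma adjusted p = 8.65e-04). Both were still called, CXCL2 was added, and 0 of the 8 were called lower, while 7.07% of all corrected rows were called higher and 6.93% lower. BIRC3 lost more of its difference than TNFAIP3. RELB, RELA, NFKB1 and NFKBIA lay between −0.08 and 0.16 after the correction, and NFKB2 at 0.34 (limma adjusted p = 0.0335). The part that length and GC content have in the deposited difference was not tested beyond this correction.

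**Figure D4:**
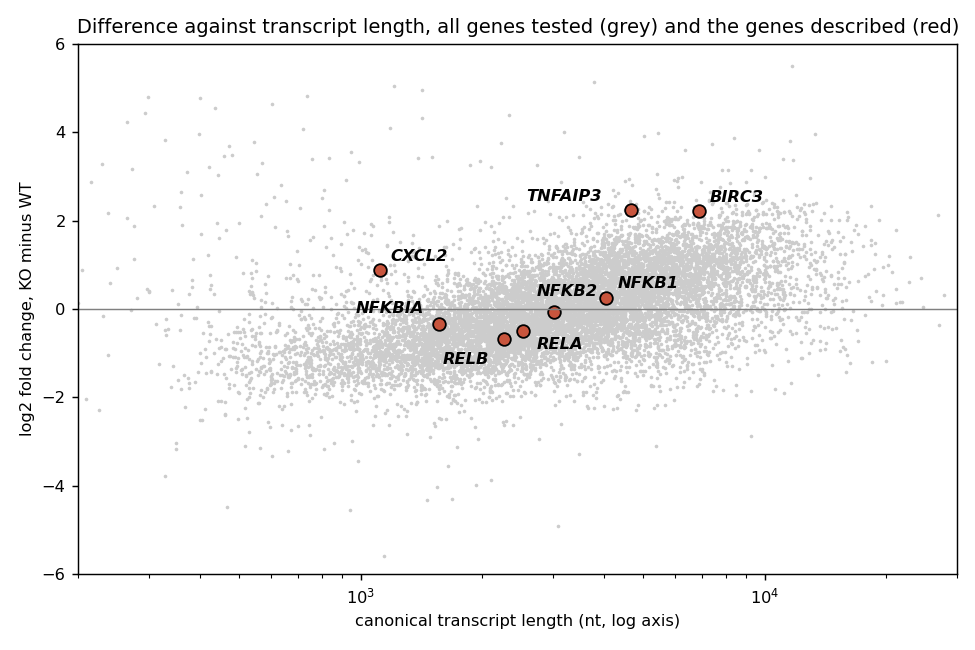
Log2 fold change (vertical axis, KO minus WT) against canonical transcript length (nt, log axis) of 11215 genes tested (grey, 26 outside the axes) and of the 8 genes described here (red). TNFAIP3 (2.24) and BIRC3 (2.21) are the longest of the 8 genes and CXCL2 (0.88) is the shortest.

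The other genes of the pathway were read from lists written from gene names, 135 genes in all. Of these 86 were tested, 10 were called higher and 9 lower, and their median was −0.01 on the log2 scale, beside −0.09 and 29.5% called in either direction over all rows. After the correction 6 were called higher and 2 lower, beside 7.07% and 6.93% of all corrected rows. After rescaling 25 were called higher and 2 lower, beside 4380 and 447 of all 13246 rows tested. The counts of each list below stand beside 14.2% of all rows tested called higher and 15.3% called lower. Without either KO library no row of the table was called by limma, as given above, and without WT replicate 1 there were 13 higher and 14 lower.

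**Figure D5:**
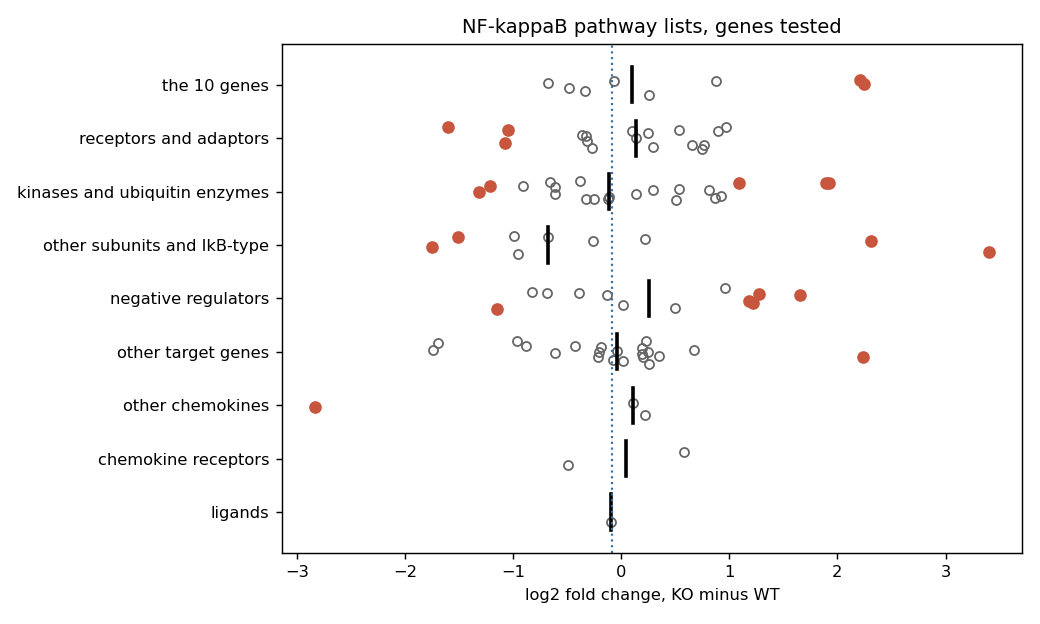
Log2 fold change (horizontal axis, KO minus WT) of the genes tested in each list, where filled red points were called, open points were not, black bars are medians and the dotted line is the median of all rows tested (−0.09). REL (3.40) and CCL5 (−2.83) are the extremes, and most receptors, kinases and targets lie within 2-fold.

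Among other subunits and IkappaB-type proteins, 9 of 9 were tested, with 2 called higher and 2 lower. REL rose from 0.260 and 0.318 FPKM to 3.81 and 4.18 FPKM, a log2 fold change of 3.40 (limma adjusted p = 5.64e-04). NFKBIZ, an atypical nuclear IkappaB protein, rose from 0.795 and 0.611 FPKM to 4.11 and 3.64 FPKM. REL and NFKBIZ reached the level for testing only through their KO values, and so had to differ between the groups. BCL3, another nuclear IkappaB protein that binds p50 and p52, fell from 17.4 and 20.6 FPKM to 6.08 and 5.05 FPKM, a log2 fold change of −1.75. NFKBIB (IkappaB-beta) was the other gene called lower, with a log2 fold change of −1.51. After the correction REL (2.48) and NFKBIZ (2.04) were still called, while BCL3 (−0.91) and NFKBIB (−0.59) were not. PDLIM2, which promotes the degradation of RELA, had the highest level of this list. It was 91.4 and 102.9 FPKM in WT and 47.1 and 52.8 FPKM in KO, short of 2-fold. Its log2 fold change was −0.96 on deposited FPKM and −0.13 after the correction.

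Of 13 further negative regulators, 12 were tested, with 4 called higher and 1 lower. ITCH, a ubiquitin ligase that works with A20, rose from 4.86 and 5.09 FPKM to 16.9 and 14.9 FPKM (log2 fold change 1.65). The deubiquitinase CYLD rose from 5.55 and 5.19 FPKM to 12.8 and 13.4 FPKM (1.27), and OTUD7B from 4.34 and 4.39 FPKM to 10.5 and 10.1 FPKM (1.22). OTULIN (1.18) was the fourth gene called higher and TNIP2, an A20-binding protein, the gene called lower (−1.15). After the correction none of these 5 was called, with values of 0.90, 0.45, 0.63, 0.47 and −0.47 in the order given, all short of 2-fold. TAX1BP1, an A20 adaptor and the most abundant of the list, was 40.2 and 39.4 FPKM in WT and 52.4 and 60.0 FPKM in KO and was not called.

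Of 21 kinases and ubiquitin enzymes, all were tested, with 3 called higher and 2 lower. TAB3, an adaptor of the kinase TAK1, rose from 3.74 and 4.47 FPKM to 14.2 and 17.5 FPKM (log2 fold change 1.92). FBXW11, an F-box protein that marks phosphorylated IkappaB for degradation, rose from 14.7 and 11.3 FPKM to 48.0 and 48.3 FPKM (1.89). IKBKG (NEMO), the regulatory subunit of the IkappaB kinase, fell from 21.9 and 26.7 FPKM to 9.60 and 9.71 FPKM (−1.32), while its catalytic partners CHUK (1.09) and IKBKB (0.14) were called higher and not called. SHARPIN, of the linear ubiquitin ligase, was the other gene called lower (−1.21). SKP1, the most abundant gene of the list, was 425.7 and 484.3 FPKM in WT and 330.9 and 368.1 FPKM in KO. SKP1 was not called on deposited FPKM and was called lower after the correction (−1.20), which took its canonical transcript of 9386 nt. Whether this is the transcript expressed here was not tested. After the correction TAB3 (1.21) and FBXW11 (1.48) were still called, and IKBKG (−0.63), CHUK (0.68) and SHARPIN (−0.30) were not.

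Of 27 receptors and adaptors, 17 were tested, with 0 called higher and 3 lower. TNFRSF12A, the receptor of the ligand TWEAK and the most abundant of the list, fell from 269.7 and 362.8 FPKM to 120.7 and 87.4 FPKM (log2 fold change −1.61). TRAF2 fell from 46.5 and 51.8 FPKM to 23.2 and 23.4 FPKM (−1.07) and TRADD from 13.4 and 18.5 FPKM to 7.41 and 7.76 FPKM (−1.05), both adaptors of TNF receptor 1. None of these 3 was called after the correction, with values of −0.76, −0.49 and −0.17, while TIRAP (1.08) was called higher. Of 10 ligands only TNFSF12 (TWEAK) was tested, at 3.61 and 3.50 FPKM in WT and 3.33 and 3.32 FPKM in KO, and the other 9, TNF and IL1B among them, did not exceed 0.197 FPKM in any library.

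Of 30 other target genes, 21 were tested, with 1 called higher and 0 lower. PTGS2, the inducible cyclooxygenase, rose from 1.40 and 1.07 FPKM to 6.19 and 6.12 FPKM, a log2 fold change of 2.24 (limma adjusted p = 5.74e-04), and 1.64 after the correction, where it was still called. C3 was 5.75 and 16.8 FPKM in WT and 2.29 and 3.58 FPKM in KO (−1.75), and IL32 2.25 and 5.07 FPKM in WT and 0.877 and 1.09 FPKM in KO (−1.70), and in both genes the WT libraries differed more than 2-fold between themselves and the adjusted p did not pass. IER3, the most abundant of the list, was 132.8 and 146.0 FPKM in WT and 100.2 and 107.6 FPKM in KO. Its log2 fold change of −0.42 turned to 0.26 after rescaling and to 0.34 after the correction, and it was not called. IL6, ICAM1 and VCAM1, textbook targets of NF-kappaB, were among the 9 genes not tested, none of which exceeded 0.473 FPKM, and were named after their values were seen.

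Of 17 other chemokines, 3 were tested and 9 were listed at 0 in all libraries. CCL5 fell from 5.75 and 10.8 FPKM to 1.11 and 0.945 FPKM, a log2 fold change of −2.83 (limma adjusted p = 9.23e-04), and −2.22 after the correction, where it was still called. CCL2 was 8.63 and 11.3 FPKM in WT and 10.7 and 12.4 FPKM in KO, and CXCL16 was 13.9 and 13.0 FPKM in WT and 14.1 and 14.9 FPKM in KO, and neither was called. Of 8 chemokine receptors, CXCR4 was 36.02 and 38.1 FPKM in WT and 27.5 and 25.1 FPKM in KO, and ACKR3 was 7.33 and 4.92 FPKM in WT and 9.18 and 8.92 FPKM in KO. Neither was called, and the other 6, which include CXCR1 and CXCR2, did not exceed 0.165 FPKM.

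Some markers of other cell types also differed between the groups. The endothelial marker CDH5, called higher, was 0.751 and 1.07 FPKM in WT and 4.26 and 3.14 FPKM in KO, with a summed level of 0.810 and 1.23 FPKM for the 6 markers in WT and 4.43 and 3.46 FPKM in KO, while KDR and EMCN were listed at 0 throughout. CDH5 made up most of the endothelial sums. The 8 leukocyte markers summed to 7.34 and 11.1 FPKM in WT and 10.8 and 10.4 FPKM in KO, which overlapped. Among them CD3E was at 0 and PTPRC at no more than 0.192 FPKM. The leukocyte marker CD68 was 3.38 and 5.16 FPKM in WT and 5.77 and 6.90 FPKM in KO. These values did not overlap, as in 86.1% of all rows tested. CD68 was called higher after the correction only (1.14, limma adjusted p = 0.00292). The 8 mesenchymal markers summed to 58.5 and 54.5 FPKM in WT and 42.0 and 38.4 FPKM in KO, with COL1A2 at 0 and PDGFRB, at 1.08 and 0.735 FPKM in WT and 3.004 and 2.62 FPKM in KO, called higher. COL1A1, COL3A1, DCN, LUM and ACTA2 went the other way, with both KO values below both WT values, as in 45.9% of all rows tested. None of them was called on deposited FPKM, and LUM was not tested. After rescaling, COL1A1 (0.19), DCN (0.24) and ACTA2 (0.38) were positive and COL3A1 was at −0.02. After the correction ACTA2 was at 0.22, while COL1A1 (−0.36) and COL3A1 (−0.92) stayed negative. DCN was called lower after the correction only (−1.17, limma adjusted p = 0.00662), which took its canonical transcript of 6850 nt. CDH5 and PDGFRB reached the level for testing only through their KO values, and so had to differ between the groups. For DCN the same held of its WT values. The part of these markers in the differences of TNFAIP3 and BIRC3 was not tested, and in bulk RNA a change in the share of cells and a change in RNA per cell cannot be told apart.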

How the data were processed

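The authors aligned reads of polyadenylated RNA to hg38 using TopHat2 with Ensembl genes and computed FPKM with Cuffdiff, 1 deposited value for each gene in each of 4 libraries. Versions, library normalization and strand use are not given in the sources used here. The deposited table also holds group averages and the authors' own fold changes, p-values and q-values, which were not used. Of 231916 lines, 57979 held values. Identifiers in the table are out of register with the symbols, so rows were found by symbol and identifiers and positions were taken from GENCODE release 44 (hg38).

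Rows with an average above 1 FPKM were transformed to log2(FPKM + 0.1) and fitted by limma (version 3.58.1, R 4.3.3), using a variance trend and Benjamini-Hochberg adjustment over 13246 rows. A call needed an adjusted p under 0.01 and a fold of at least 2. Fold changes on this scale understate changes at low levels. With 2 libraries against 2, an exact permutation test cannot go below 0.33. In low genes no log2 ratio between libraries was shared by more than 4.53% of genes, so no step of 1 read was found and the depth is unknown. Lengths and GC content were matched by symbol for 11215 of the rows tested, and the correction used loess with a span of 0.3. They are those of the canonical transcript, and which transcript of a gene was expressed was not tested. The fits were tested on simulated data. The genes and lists were chosen with earlier results of these data known. From each further list, the 3 tested genes with the largest change and the most abundant gene were named, and of the markers the most abundant, and any other gene was named after its values were seen. Planned comparisons of protein sequences were not run. Alternatives were other pseudocounts, filters, scalings, thresholds, the variance trend, the replicate block and left-out libraries. Python 3.11.15, pandas 2.3.3 and matplotlib 3.10.9 were used.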

Additional observations from a re-analysis of the deposited data

How the results depend on the processing

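With 2 libraries per group and no read counts, the depth and the biological spread are unknown. TNFAIP3 and BIRC3 were called under all alternatives but the loss of a KO library, where their log2 fold changes were 2.17 and 2.32 (TNFAIP3) and 2.22 and 2.20 (BIRC3). Over the left-out libraries these values ranged from 2.08 to 2.41 for TNFAIP3 and from 2.08 to 2.34 for BIRC3. The median of the genes described ranged from 0.043 (without WT replicate 1) to 0.15 (without WT replicate 2). The number of the 10 genes called higher then ranged from 0 to 2, that of the other pathway genes from 0 to 13 higher and 0 to 14 lower, and that of all rows from 0 to 2136 higher and 0 to 2633 lower. Without KO replicate 1 or 2, 0 rows were called by limma, against 7129 and 7307 at an unadjusted p under 0.05.

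Rescaling to TPM gave 25 higher and 2 lower pathway genes, 4380 higher and 447 lower rows, a median of the genes described of 0.77, and reversed values for NFKBIA (0.34), NFKB2 (0.61), RELA (0.19) and TXNDC9 (0.12), while CXCL2 was called (1.54). Centring on the median gave a median of −0.0475 and 15 pathway genes lower. Both scalings shift all genes alike by construction. The length and GC correction gave 6 higher and 2 lower pathway genes, 793 higher and 777 lower rows, a median of 0.25, and values of 0.16 for NFKBIA, 0.34 for NFKB2 and 0.034 for RELB, reversed in sign, and of 1.25 for CXCL2, now called. Adding the replicate block to the correction, the values of these genes were the same, with 6 and 3 pathway genes and 816 and 800 rows. A filter at an average of 5 FPKM left 1220 rows higher, with fewer rows tested and RELB and CXCL2 not tested. Without a filter limma warned that most residual variances were 0, so that fit is unreliable. NFKB2 was also reversed without WT replicate 2 (0.030), with left-out values from −0.17 up to that. The replicate block alone gave 2 genes higher and 0 lower among the genes described, 10 and 11 pathway genes, 1960 and 2146 rows, and a log2 fold change of −0.55 for TXNDC9 (adjusted p = 0.00267 from limma), which stayed short of 2-fold. The deviations of same-numbered libraries correlated at −0.0904, so the numbers did not pair them. The cause of each move was not tested beyond these settings.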
